A study of Mus musculus with 12 samples.

Results

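CpG island shores are the stretches at the edge of CpG islands where CpG density falls off. Here a shore was a fixed 1 kb tile of the mm10 genome on chromosomes 1 to 19 that held 11 to 29 CpGs and lay directly next to a tile with 30 or more CpGs and the 5' end of a curated RefSeq transcript, called the island below. A tile also needed 3 or more CpG cytosines (sites) read at least 10 times in all 6 methylation libraries. Of 71214 tiles with that coverage, 2359 (3.31%) were shores. They belonged to 2252 genes, each shore being assigned to the gene with the nearest 5' end in the island next to it, and 106 genes had 2 or more shores. For comparison there were 10874 covered island tiles with a 5' end and 38756 other covered tiles with 11 to 29 CpGs.

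The cells were primary chondrocytes, the cells of cartilage, isolated from cartilage of the femoral head and the tibial plateau of C57BL/6J mouse pups 5 to 6 days old. All were expanded in monolayer in medium with serum and then kept as pellets, a three-dimensional culture that the study used to drive hypertrophy, in the same medium with ascorbic acid and ITS added. Pellets were harvested at Week 1 (day 7) or Week 3 (day 21), with 3 libraries per week for ERRBS (enhanced reduced representation bisulfite sequencing, which reads DNA methylation in CpG-rich fragments) and 3 others per week for RNA-seq. No allele, drug or untreated control separated the groups, so every comparison below is of pellet age, and since nothing in the labels ties a replicate to its own culture or animal, p-values cover the spread of these samples alone, which may be technical.

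DNA methylation in mammals is placed mostly on the cytosine of CpG. Most CpGs of the genome are methylated, whereas the dense CpGs of islands at promoters are usually kept free of it, and the shore is where one state gives way to the other. Shore methylation is known for differing between tissues and between cell states, and chondrocytes that become hypertrophic switch on a matrix and mineralisation programme while leaving the resting state.

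Stretches of shores show this transition base by base. The next lines give the plus strand of mm10, 5′ to 3′, with the CpGs measured in all 6 libraries in capitals. The Sema7a and Zbtb24 shores are shown for a transition within a single tile, Ptch1 because the gene is the receptor and a target of hedgehog signalling, Tcf7 as a Wnt effector, and Rpl35 and Col11a1 as shores near either end of the range. All but Ptch1 were chosen after their values were seen.
Sema7a upstream shore, chr9:57939666-57939965: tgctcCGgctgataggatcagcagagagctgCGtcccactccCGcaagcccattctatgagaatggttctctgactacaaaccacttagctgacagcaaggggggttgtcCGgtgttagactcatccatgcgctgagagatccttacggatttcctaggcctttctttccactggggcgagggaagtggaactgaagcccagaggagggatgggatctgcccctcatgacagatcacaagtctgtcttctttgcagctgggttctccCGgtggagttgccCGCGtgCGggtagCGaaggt
Zbtb24 upstream shore, chr10:41449612-41449839: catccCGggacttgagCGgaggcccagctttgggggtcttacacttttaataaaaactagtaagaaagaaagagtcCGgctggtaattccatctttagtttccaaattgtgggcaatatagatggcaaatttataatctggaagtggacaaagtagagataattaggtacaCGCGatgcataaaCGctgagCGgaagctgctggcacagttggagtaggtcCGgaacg
Ptch1 upstream shore, chr13:63574257-63574335: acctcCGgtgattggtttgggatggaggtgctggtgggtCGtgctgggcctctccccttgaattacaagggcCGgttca
Tcf7 downstream shore, chr11:52281263-52281323: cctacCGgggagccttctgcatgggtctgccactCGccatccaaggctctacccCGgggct
Rpl35 upstream shore, chr2:39006217-39006236: cccttCGCGtctcCGgttag
Col11a1 downstream shore, chr3:114031082-114031182: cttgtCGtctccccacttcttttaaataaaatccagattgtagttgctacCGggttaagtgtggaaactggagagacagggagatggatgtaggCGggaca

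Sema7a encodes a membrane-anchored semaphorin. Its 5' end lies to the right of the printed stretch, which is intergenic, so the sequence runs towards the promoter. The 9 measured CpGs had mean levels over the 6 libraries of 91.5, 59.8, 66.1, 22.0, 1.05, 2.05, 3.56, 0.546 and 3.54% from left to right, at 441 to 153 bases from the 5' end. The first CpG read 89.1, 92.5 and 81.0% in the Week 1 libraries and 94.1, 100 and 92.3% at Week 3, and the fifth read at most 3.33% in any library. From the first to the fifth CpG, methylation thus dropped from most reads to almost none in every library. The CpGs after the fifth were low on average, but Week 1 replicate 3 read 20% at the seventh and 10.5% at the ninth.

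The Zbtb24 stretch, also intergenic and also read towards the 5' end of its gene, a zinc finger protein, had 8 measured CpGs at 46.3, 64.7, 42.3, 8.83, 8.52, 5.53, 8.50 and 3.12%. In the Ptch1 stretch, intergenic upstream, the 3 CpGs read 34.8, 21.7 and 53.8%, and here the 5' end lies to the left. The Tcf7 stretch lies in an intron, with the 5' end to the right, and its 3 CpGs read 8.23, 89.5 and 94.9%: the lowest was the farthest from the 5' end, so the order seen at Sema7a did not hold there. All 3 CpGs of the Rpl35 stretch were methylated in most reads (93.5, 80.6 and 91.0%), whereas those in the intronic shore of Col11a1, which encodes a cartilage collagen chain, read 0, 0.189 and 0%.

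Shores held a median of 21 CpGs against 18 in the other tiles of 11 to 29 CpGs, with much the same GC content (medians 48.2 and 48.5%) and the same median of 3 CCGG sites, the cut site of the enzyme MspI that decides which fragments ERRBS reads. The ratio of observed to expected CpGs was higher in shores, with medians of 0.365 and 0.303, and repeats masked a median of 13.7 and 15.8% of bases. By annotation, 1388 shores lay mostly in introns, 809 in intergenic sequence and 162 in exons, and 147 held a 5' end of their own. Upstream shores numbered 1017 and downstream shores 1342 relative to the assigned gene. For 274 of these the island held 5' ends on both strands, so that one gene's upstream side was another's downstream side. A shore was read at a median of 5 sites, and 587 rested on the minimum of 3.

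Depth differed between libraries. The median number of reads per site in shores was 64.3, 72.4 and 18.9 in Week 1 replicates 1, 2 and 3 and 36.5, 24.7 and 29.8 in those of Week 3. RNA totals ran from 14383061 to 19803055 counts. In the RNA libraries, summed levels of 9 chondrocyte markers were 17576 to 32496 CPM (counts scaled to a common library size) at Week 1 and 34279 to 37355 at Week 3. The lowest sum was that of Week 1 replicate 2. Of these 9, 4 rose and 0 fell, but 1 fell with the replicate block and 2 without Week 1 replicate 2. All 9 hypertrophic markers rose. The summed levels of 12 macrophage and leukocyte markers were 37.9 to 88.9 and 15.0 to 65.5 CPM (5 of 10 tested fell, and 1 without Week 1 replicate 1 or 3 without Week 3 replicate 2). The 12 adipocyte markers summed to 126 to 409 and 131 to 381 CPM, highest in replicate 2 of both weeks (1 of 11 tested fell, 0 by DESeq2), and the 8 endothelial markers to 10.2 to 12.9 and 7.13 to 8.56 CPM (2 of 3 tested fell, but 0 by DESeq2 and 0 to 2 with 1 library left out). The call of Egfl7, an endothelial gene with a shore, was lost by DESeq2 and with any 1 of 5 of the 6 libraries left out. No marker of these lists except the endothelial, adipocyte and chondrocyte ones had a shore, none of them was at 0 in all libraries, and the part of other cells in the shore levels was not tested. In bulk RNA, fewer cells of a type and less RNA per cell cannot be told apart.

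At the sites read, shores were sparsely methylated tiles as a class, with a mean far closer to islands than to other tiles of like CpG content. The level of a tile is the mean over its sites of the percent of reads that showed a methylated cytosine. Sites were unevenly placed: 8478 lay in the 200 bases next to the island, at 5.29%, and 761 in the outermost 200 bases, at 55.4%. Shore levels therefore lean towards the island edge and are not levels of the whole tile. Averaged over all 2359 shores it was 20.1, 20.4 and 20.3% in the Week 1 libraries and 19.8, 20.3 and 19.8% in the Week 3 libraries, so that the weeks overlapped. Island tiles averaged 2.45% ± 0.0087 (SD, n = 3) at Week 1 and 2.52% ± 0.251 (n = 3) at Week 3. The other tiles of 11 to 29 CpGs averaged 67.9% ± 0.193 and 67.2% ± 0.074. Shores lay below those tiles by 47.5 points on average and by 45.3 points after weighting the other tiles to the shores' CpG counts, in 6 of 6 libraries (exact sign-flip test over the 6 libraries, two-sided, p = 0.03125, the smallest this test can give). The test asks only whether the libraries agree in sign over the same tiles.

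**Figure D1:**
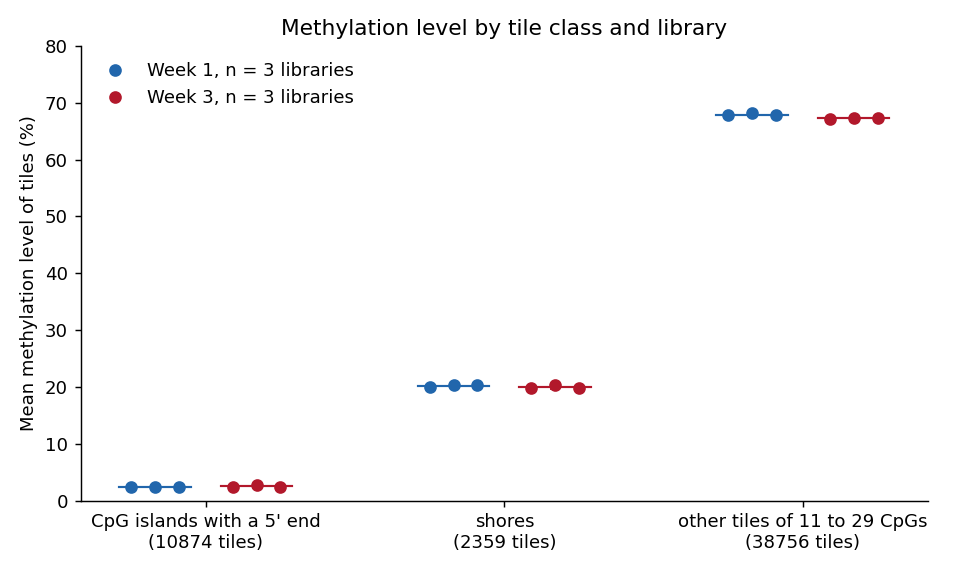
Mean methylation level (%, y axis) of island tiles with a 5' end, shores and other tiles of 11 to 29 CpGs, with 1 point per ERRBS library, a horizontal line at the mean of 3 libraries and bars for the SD. Shores sit between 19.8 and 20.4% in all 6 libraries, with islands near 2.5% and the other tiles near 67 to 68%.

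The average hides a wide spread. The median shore had a level of 3.15% over the 6 libraries, and 1067 of 2359 (45.2%) were under 2%. A further 395 lay at 2 to 10%, 393 at 10 to 40%, 148 at 40 to 60%, 151 at 60 to 80% and 205 (8.69%) above 80%. At the sites read, a shore was therefore more often almost free of methylation than at any other level, and a minority were methylated in most reads. Between replicates the SD of a shore had a median of 1.40 points at Week 1 and 1.83 at Week 3. Among shores of 10 to 80% these medians were 4.12 and 5.91 points.

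The level fell with CpG number. At Week 1 it was 35.1% ± 0.158 (SD, n = 3) in the 282 shores with 11 to 14 CpGs, 27.2% ± 0.175 in the 622 with 15 to 19, 17.8% ± 0.248 in the 737 with 20 to 24 and 10.9% ± 0.0919 in the 718 with 25 to 29. The steps were many times the spread between libraries and came in the same order in all 6. The other tiles went only from 71.6 to 61.0% over the same bands. At the limits of the definition, the 50 shores with 11 CpGs averaged 30.2% at Week 1 and 30 neighbours of islands with 10 CpGs averaged 46.8%, while the 147 shores with 29 CpGs averaged 10.9% and 130 neighbours with 30 CpGs and no 5' end averaged 6.31%.

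Of the shores, 2119 had an island tile that was itself covered, and in these pairs the shore was above its island by 16.8, 17.1 and 17.05 points in the Week 1 libraries and 16.6, 16.5 and 16.5 points at Week 3. The island partners averaged 2.19% ± 0.0344 and 2.32% ± 0.296 (n = 3 each), the highest value of 2.66% being in Week 3 replicate 2. Pair by pair the step was uneven. The median was 1.66 points, 863 shores were above their island in all 6 libraries, 474 (22.4%) by at least 20 points in all 6, and 70 were below it in all 6.

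Steep steps were found beside genes of many kinds. The largest mean steps were at Eno2, Ppa2, Tonsl, Magoh and Washc3. The upstream shore of Eno2, the neuronal form of the glycolytic enzyme enolase, read 98.2, 95.3 and 100% at Week 1 and 99.1, 93.1 and 97.3% at Week 3, with an island at 0.688% on average. Eno2 was expressed at 57.6 ± 1.83 CPM at Week 1 and 43.6 ± 3.65 at Week 3, a fall of log2 -0.40 ± 0.07 (SE, adjusted p 0.00213, edgeR's quasi-likelihood test with Benjamini-Hochberg adjustment, as for every adjusted p of a gene below). The Eno2 shore overlapped another transcript, with 46.7% of its bases in exons, and was read at 3 sites. A nearly fully methylated shore thus lay beside the 5' end of an active gene, but within sequence that is itself transcribed by annotation. Ppa2, a mitochondrial pyrophosphatase, had a shore at 95.3 and 96.3% in Weeks 1 and 3, Tonsl, a DNA replication repair factor, at 95.4 and 96.8%, Magoh, an exon junction complex subunit, at 97.8 and 93.2%, and Washc3, a subunit of the WASH complex, at 93.0 and 98.9%. RNA of Ppa2 rose by log2 0.33 ± 0.09 (adjusted p 0.0212), which did not hold by DESeq2 (0.0785), nor without replicate 1 of Week 1 (0.0682) or replicates 2 or 3 of Week 3 (0.0627 and 0.0632). RNA of Tonsl differed by log2 0.22 (adjusted p 0.362) and of Washc3 by 0.01 (adjusted p 0.954), and Magoh had no row of its own in the count tables.

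At Myo18a, which encodes an unconventional myosin, the island was as methylated as its shore. The downstream shore was at 87.5% ± 6.94 (n = 3) at Week 1 and 88.7% ± 1.74 at Week 3, and the island at 88.4% over the 6 libraries. Its RNA rose from 39.9 ± 5.48 to 84.3 ± 6.64 CPM (log2 1.08 ± 0.10, adjusted p 6.3e-05). That RNA value is of the gene's transcript with the most counts, which need not start in this island. At Hoxa2, a homeobox gene of the head and anterior trunk, the shore was at 88.9 and 88.4% and the island lower, at 49.3%.

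The rise of methylation away from the island was visible inside the shore tiles. Sites in the first 200 bases from the island edge averaged 5.29% over the 6 libraries, those at 200 to 400 bases 18.5%, at 400 to 600 bases 36.7%, at 600 to 800 bases 50.8% and in the last 200 bases 55.4%. In the 400 shores with sites on both sides of the tile's midpoint, the outer side averaged 47.7% and the inner side 24.1%, and the outer side was the higher in 321 of them. Beyond the shore, 146 loci were also covered in the tile after it: there the island averaged 2.22%, the shore 21.6% and the next tile 57.4%. The 3 levels were in that order at 89 of these loci, the next tile was below the shore at 31, and the shore was below the island at 28. ERRBS reads mostly CpG-rich fragments, so the sites that could be read far from an island were fewer, 761 in the outermost bin against 8478 in the innermost.

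Distance from the 5' end ordered the shores as well. Shores whose near edge was 1 to 200 bases from the 5' end averaged 9.78% ± 0.176 (SD, n = 3) at Week 1, and those in the following bins of 200 bases, up to 1000, averaged 13.7% ± 0.138, 21.0% ± 0.176, 30.5% ± 0.279 and 41.0% ± 0.314. Shores that held a further 5' end were lower, at 11.9% ± 0.419 against 20.8% ± 0.152. Exonic shores (33.1% ± 0.302) exceeded intergenic (21.6% ± 0.223) and intronic ones (17.9% ± 0.148). Across the 2359 shores, Spearman's rho of the level was -0.281 with CpG number, -0.372 with the observed to expected ratio, 0.361 with distance and 0.163 with GC content. These are descriptions over tiles that share libraries and differ in depth and base composition.

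Upstream and downstream shores differed in profile. Where all 5' ends of the island were on one strand, the 957 upstream shores averaged 22.7% ± 0.151 and the 1128 downstream shores 18.98% ± 0.203 at Week 1, a difference of 3.75 points over the 6 libraries (exact sign-flip test, p = 0.03125, 6 of 6 libraries). Measured from the 5' end, and over sites of both the island and the shore, upstream minus downstream was -0.298 points in the first 200 bases. It was 1.25, 4.83, 14.6, 15.2 and 6.63 points in the 5 following bins of 200 bases, and -4.37 and -6.85 points at 1200 to 1400 and 1400 to 1600 bases. Each of these 8 differences had 1 sign in 6 of 6 libraries (exact sign-flip test, p = 0.03125, and 0.0352 after Benjamini-Hochberg adjustment over 9 bins). The ninth bin, at 1600 to 1800 bases, differed by -0.563 points, with 3 of 6 libraries higher upstream (exact sign-flip p = 0.844). The test asks whether the libraries agree in sign over the same loci and says nothing about other loci. Over the sites read, methylation thus began nearer to the 5' end on the upstream side. The bins differed in make-up, however. Sites in the shore tile were 44.2% upstream and 20.9% downstream at 200 to 400 bases, and 75.5 and 60.2% at 600 to 800 bases. The part of this in the difference between sides was not tested. In 90 islands with a covered shore on both sides, the upstream one was higher by a mean of 6.72 points but a median of 0.963, with 35 higher upstream and 25 higher downstream in all 6 libraries.

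**Figure D2:**
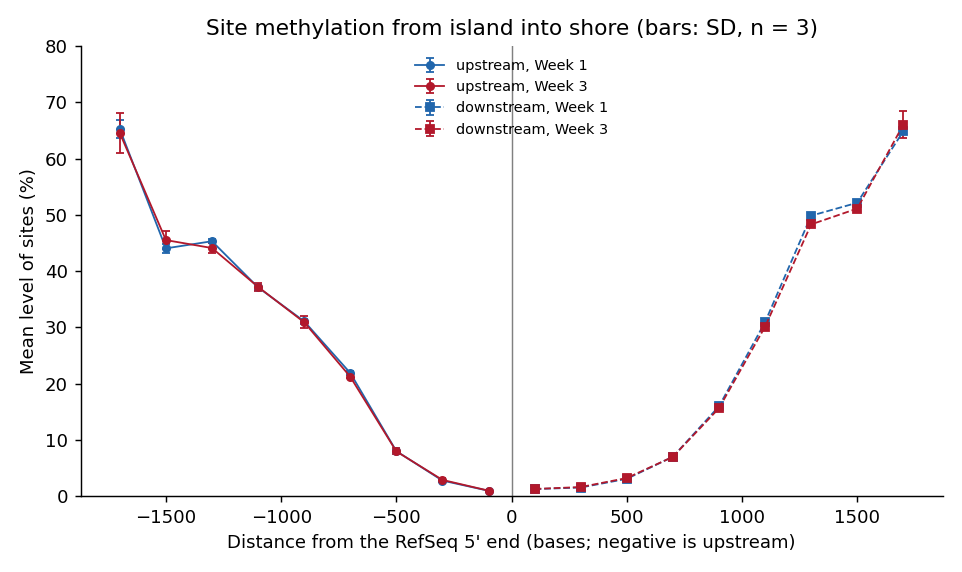
Mean methylation of sites (%, y axis) in bins of 200 bases by distance from the RefSeq 5' end (x axis, bases, upstream negative), over the island and shore of islands with 5' ends on one strand. Points are means of 3 libraries, bars their SD, and bins with fewer than 20 loci are left out: the level passes 20% at 600 to 800 bases upstream and at 1000 to 1200 bases downstream, and the lines of the weeks lie close together.

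Egfl7, an endothelial secreted factor, is an example of unequal sides. Its upstream shore, in an intron of another transcript, was at 64.8 and 67% in Weeks 1 and 3, and its downstream shore at 2.42 and 3.16%. H2-D1, a class I histocompatibility gene whose reads can be shared with near-identical copies, had the reverse order: 0.468 and 0% upstream against 50.4 and 62.4% downstream.

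The level of shores as a class did not change beyond the spread between libraries by Week 3. The mean went from 20.2% ± 0.161 to 19.9% ± 0.274 (SD, n = 3 each), a difference of -0.30 points (exact permutation test over the libraries, two-sided, p = 0.3, where 3 against 3 libraries cannot give less than 0.1). The step from island to shore went from 16.96 ± 0.172 to 16.5 ± 0.0634 points, a difference of -0.41 (exact permutation p = 0.1, the smallest possible), with all Week 3 libraries below all Week 1 libraries. The other tiles of 11 to 29 CpGs differed by -0.67 points, also without overlap (exact permutation p = 0.1). The gap between shores and those tiles narrowed by 0.372 points (exact permutation p = 0.1). Over 32 such comparisons of the weeks, of tile classes, the step, sides, CpG bands, level classes, distances, annotations and classes of RNA change, the smallest adjusted p was 0.32, and the design could not have given a value under 0.1 before adjustment.

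Tile by tile, no shore passed the test. Of 2250 shores with both methylated and unmethylated reads, 0 had an adjusted p under 0.05 (edgeR's quasi-likelihood test on methylated and unmethylated reads, Benjamini-Hochberg over 70582 tiles), as had 0.00% of all tiles tested. The smallest adjusted p was 0.998. Unadjusted p was under 0.05 in 58 shores, 2.58% of those tested, against 3.42% of all tiles: 18 were higher and 40 lower at Week 3, 0.8 and 1.78% of the shores against 1.03 and 2.39% of all tiles. Both totals lie under the share of 0.05 that tiles without any change would give. The fit was thus strict, and 0 calls do not show that no shore changed. By other tests of the same tiles the calls were also 0, with 95 shores at an unadjusted p under 0.05 in limma and 86 in a quasi-binomial model. In 64 shores (2.71%, against 3.90% of all tiles) every Week 3 library was above every Week 1 library, and in 133 (5.64%, against 6.46%) every one was below. These shares were at or below the background, so they are no result about shores. Means differed by over 10 points in 80 shores (3.39%, against 6.22% of all tiles) and by over 5 in 360 (15.3%, against 23.4%). This background was not matched for level, with a median of 3.15% in shores and 62.6% in all tiles. The lower shares therefore do not show that shores changed less.

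**Figure D3:**
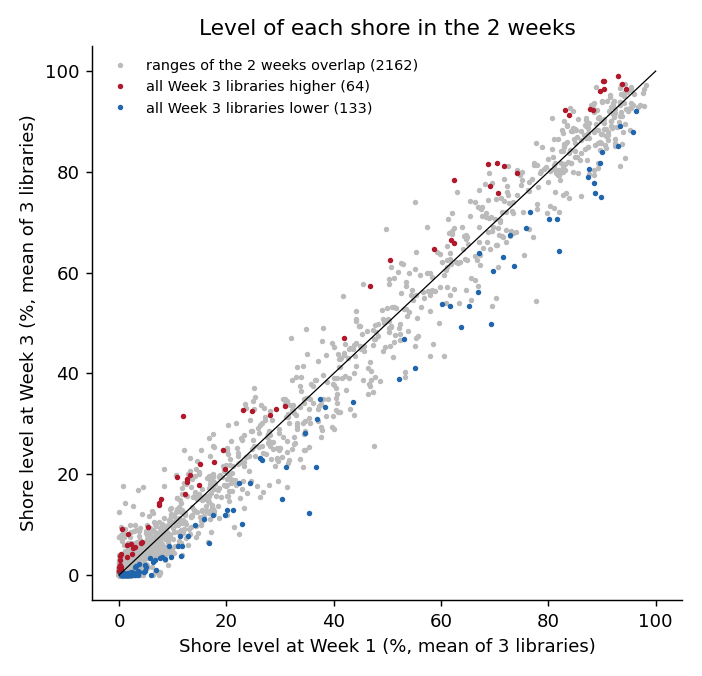
Level of each of the 2359 shores at Week 3 (%, y axis) against Week 1 (%, x axis), each the mean of 3 libraries, with the line of equality. The 64 shores whose Week 3 libraries all lie above and the 133 whose libraries all lie below the Week 1 libraries are coloured and run along the whole range of levels.

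The shores with the smallest p in the tile test, none of them past the threshold (adjusted p 0.998 for each), were at Gfus, B3galt4, Hspa9, Abhd17a, Usp38, Cercam, Ap2b1 and Rnf207. The intronic shore of Gfus, which makes GDP-fucose, read 48.9, 59.3 and 56.9% at Week 1 and 37.9, 45.9 and 39.3% at Week 3, with no overlap. That of B3galt4, a glycolipid galactosyltransferase, a shore wholly within an exon, read 22.1, 21.8 and 29.1% and then 18.1, 18.5 and 18.1%. The upstream shore of Hspa9, a mitochondrial chaperone, read 12.2, 12.6 and 7.78% and then 20.4, 25 and 12.8%. The Gfus and B3galt4 levels were lower in all Week 3 libraries and the Hspa9 level was higher. RNA of Hspa9 fell by log2 -0.26 ± 0.06 (adjusted p 0.0103), whereas Gfus differed by 0.10 (adjusted p 0.552) and B3galt4 by -0.21 (adjusted p 0.366).

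Usp38 encodes a deubiquitinase. Its downstream shore read 80.7, 84.4 and 81.0% at Week 1 and 67.9, 58.7 and 66.1% at Week 3, and its RNA fell by log2 -0.27 ± 0.06 (adjusted p 0.00941). The shore of Cercam, related to collagen galactosyltransferases, read 30.5, 42.4 and 47.4% and then 29.2, 32.6 and 25.03%, so the weeks overlapped, and its RNA rose from 52.1 ± 2.62 to 88.9 ± 13.4 CPM (log2 0.77 ± 0.10, adjusted p 0.000444). The shore of Abhd17a, a depalmitoylating enzyme, went from a mean of 6.30 to 2.62% and that of Rnf207, a ring finger protein, from 19.7 to 11.9%, without overlap. Ap2b1, an adaptor of clathrin coats, read 1.81, 0.877 and 3.56% at Week 1 and 0% in all Week 3 libraries, where 0 of 653 reads were methylated, which allows up to 0.459% (3 counts, covering counting error only). RNA of Abhd17a, Rnf207 and Ap2b1 did not pass the test (log2 -0.21, -0.04 and -0.04, adjusted p 0.166, 0.916 and 0.511).

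Among shores whose weeks did not overlap, the largest differences upward were at 5730507C01Rik, Bcl7c, Castor1, H2-D1 and Mrps24. The first of these was read at 4 sites and each of the others at 3, the minimum. The shore of the transcript 5730507C01Rik read 11.4, 13.6 and 11.1% at Week 1 and 26.3, 54.8 and 13.7% at Week 3. Its mean difference of 19.6 points rested mostly on Week 3 replicate 2. The Bcl7c shore, at a gene of a chromatin remodelling complex subunit, went from 62.4 to 78.5%. The upstream shore of Castor1, an arginine sensor, read 68.4, 68.5 and 69.2% and then 83.4, 77.8 and 83.3%, while its downstream shore went from 22.6 to 15.3% with overlap. Castor1 RNA fell by log2 -0.47 ± 0.13 (adjusted p 0.0177), but did not pass without replicate 3 of Week 1 (0.0532) or replicate 1 of Week 3 (0.0673). At Mrps24, a mitochondrial ribosomal protein, the level went from 70.4 to 81.7%. RNA of 5730507C01Rik, Bcl7c, H2-D1 and Mrps24 did not pass the test (adjusted p 0.826, 0.143, 0.148 and 0.414).

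The largest differences downward were at Maf1, Ung, Usp38, Dusp15 and Mtif2, each read at the minimum of 3 sites. Maf1, a repressor of RNA polymerase III, had a downstream shore at 42.3, 31.98 and 32.03% at Week 1 and 12.8, 0 and 23.9% at Week 3. The island beside it held 5' ends of 2 genes, on both strands, so the tile was also an upstream shore of another gene. Ung, the uracil DNA glycosylase, had one at 62.9, 67.1 and 77.9% and then 62.7, 33.3 and 53.7%, so that its groups were separated by under 1 point. Dusp15, a phosphatase, went from 36.8 to 21.4% and Mtif2, a mitochondrial translation factor, from 30.3 to 15.1%. RNA of Ung fell by log2 -0.77 ± 0.12 (adjusted p 0.0011) and that of Dusp15 differed by -0.64 (adjusted p 0.161). Maf1 fell by -0.25 ± 0.08 and Mtif2 rose by 0.26 ± 0.08 (adjusted p 0.0263 for both), calls that were lost with DESeq2 (0.068 and 0.0649). Maf1 also missed the threshold without replicate 3 of Week 1 (0.0932) or replicates 1 or 2 of Week 3 (0.0506 and 0.088). Mtif2 missed it without replicates 1 or 3 of Week 1 and without each replicate of Week 3 (0.0827, 0.0909, 0.0522, 0.0765 and 0.0616). Lower shores thus lay beside genes that fell and a gene that rose.

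Genes with a lower Week 1 expression had more methylated shores. The genes tested for expression were split into 4 classes of equal size by Week 1 level per kb of transcript, with limits at 2.37, 7.94 and 19.2 CPM per kb, so that genes of different length could be set side by side. Shore levels at Week 1 were 27.1% ± 0.421 (SD, n = 3) in the lowest class (389 shores), 17.97% ± 0.153 in the second (528), 16.7% ± 0.0722 in the third (539) and 16.0% ± 0.177 in the highest (539). The 278 shores of genes below the filter on low counts averaged 27.0% ± 0.441. The lowest class exceeded the highest by 11.2 points in 6 of 6 libraries (exact sign-flip test, p = 0.03125), and this gap differed by 0.026 points between the weeks (exact permutation p = 0.9). The sign-flip test asks whether the libraries agree in sign over the same shores and says nothing about other genes. The order of all 4 classes held in 5 of 6 libraries. In Week 3 replicate 2 the highest class (16.3%) was above the third (16.0%), and genes below the filter were above the lowest class in 1 of 6 libraries.

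Most of the step thus fell between the lowest class and the rest. Shares of shores at 40% or more were 29.8, 18.8, 16.0 and 17.1% from the lowest to the highest class, and shares under 10% were 49.6, 63.4, 68.5 and 71.4%. Highly expressed genes could have fully methylated shores: of the 205 shores above 80%, 39 were of genes in the highest class and 78 of genes in the upper 2 classes. The islands followed a similar order at lower values, with 3.78, 1.37, 1.12 and 0.963% from the lowest to the highest class and 6.00% for genes below the filter.

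The order held partly within strata. Among downstream shores the Week 1 levels were 28.0, 16.1, 13.8 and 14.9% from the lowest to the highest class, and among upstream shores 27.3, 21.0, 20.5 and 18.1%. In shores with 20 to 29 CpGs they were 19.3, 12.01, 11.7 and 9.88%, and in those with 11 to 19 CpGs 39.8, 26.9, 23.5 and 27.9%, where the highest class exceeded the third. Within 400 bases of the 5' end they were 16.8, 9.55, 9.99 and 8.50%, and from 400 to 1000 bases 36.2, 26.8, 23.5 and 24.5%. The lowest class was the highest of the 4 in each stratum, and the order of the other classes varied. Over the 1995 shores of tested genes, Spearman's rho of level and Week 1 expression per kb was -0.213 (-0.158 for 802 upstream shores and -0.261 for 962 downstream shores), a description over tiles of the same libraries.

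**Figure D4:**
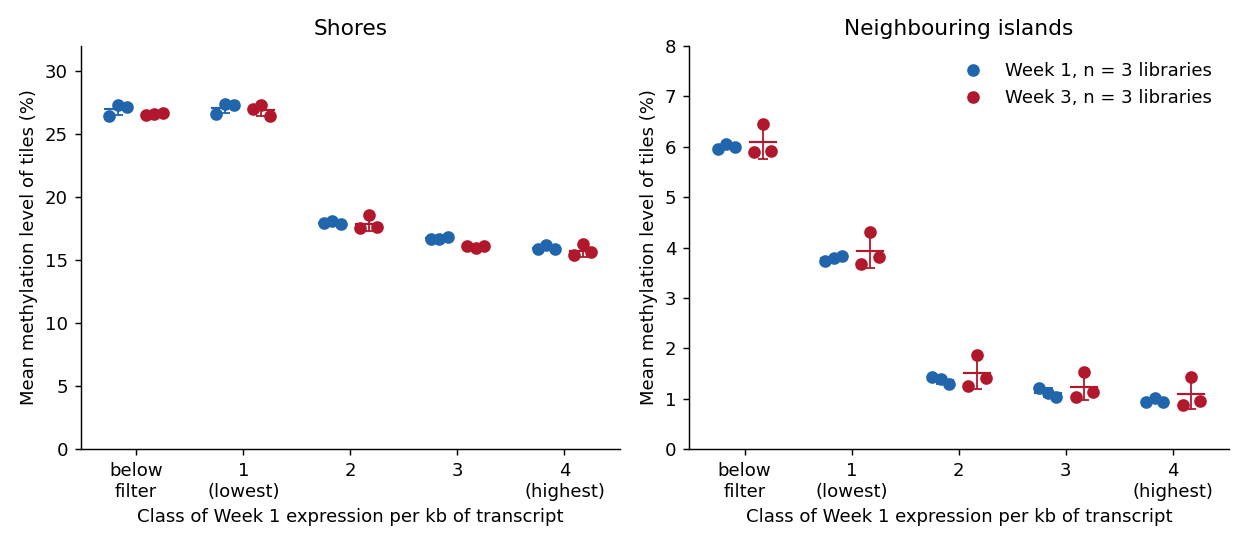
Mean methylation level (%, y axis) of shores (left) and of their covered islands (right) by class of the gene's Week 1 expression per kb (x axis), with genes below the filter on low counts apart. Points are libraries, lines and bars the mean and SD of 3: shores of the lowest class are near 27% and those of the other classes between 15 and 19%.

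Expression changes at shore genes were about as frequent as elsewhere. Of 1907 shore genes tested, 759 (39.8%) passed an adjusted p under 0.05 between the weeks, against 37.4% of all genes tested. Of them 394 rose (20.7%, against 19.7%) and 365 fell (19.1%, against 17.7%), and 78 rose at least 2-fold (4.09%, against 4.84%) and 31 fell at least 2-fold (1.63%, against 2.05%). The median log2 change was -0.02 in shore genes and -0.01 in all genes tested. The Week 1 level was 18.98% ± 0.288 (SD, n = 3) at shores of genes that rose, 16.8% ± 0.234 at those of genes that fell and 19.5% ± 0.104 at those of genes that did neither.

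Shore change and expression change showed no common direction. Shores of genes that rose differed by -0.14 points between the weeks (410 shores), those of genes that fell by -0.49 (388) and those of the other tested genes by -0.26 (1197). The level at genes that rose minus the level at genes that fell was 2.36, 2.36 and 1.85 points in the Week 1 libraries and 2.28, 3.24 and 2.10 points at Week 3. The weeks overlapped, and the difference of 0.348 points did not pass the test (exact permutation p = 0.6). Without Week 3 replicate 2, the library with the highest value, it was -0.000634 points. Over 1995 shores, Spearman's rho between the 2 changes was 0.0245 and Pearson's r 0.0401, as a description of tiles that share libraries. Of the 64 shores with higher Week 3 levels, 12 were of genes that rose and 14 of genes that fell, and of the 133 with lower levels, 25 and 29. Among all 2359 shores these numbers were 410 and 388.

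**Figure D5:**
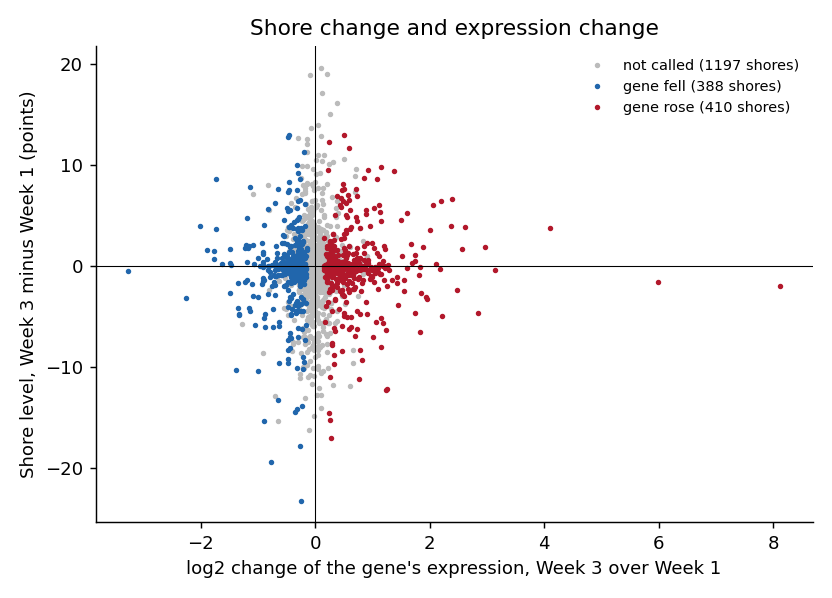
Difference in shore level between the weeks (points, y axis) against the log2 change of the gene's expression (x axis) for the 1995 shores of tested genes, 1 point per shore, coloured by whether the gene rose, fell or was not called. The cloud is centred near 0 on the y axis on both sides, with Spearman's rho 0.0245.

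Genes with large expression changes illustrate this. The panel gene Ptch1 had an upstream shore at 32.1, 28.6 and 32.4% at Week 1 and 26.7, 46.0 and 32.3% at Week 3, overlapping, while its RNA rose from 77.7 ± 13.4 to 403 ± 36.1 CPM (log2 2.38 ± 0.13, adjusted p 1.06e-05). The upstream shore of Col1a2, a chain of type I collagen, read 45.4, 32.95 and 25% and then 36.3, 27.5 and 38.8%, with RNA rising from 4941 ± 899 to 22456 ± 1950 CPM (log2 2.18 ± 0.14). Pcsk6, a proprotein convertase, had a downstream shore at 89.9, 89.8 and 93.8% and then 81.1, 90.7 and 86.9%, with RNA up by log2 2.21 ± 0.12. For these genes the shore level overlapped between weeks while RNA rose more than 4-fold, from a shore that was part methylated or nearly fully methylated throughout.

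Values at 4 other genes with called RNA changes follow. The shore of Adamts9, a matrix protease, read 34.5, 31.4 and 38.2% and then 27.4, 29.8 and 27.2%, with RNA up from 25.1 ± 2.62 to 89.0 ± 13.5 CPM (log2 1.82 ± 0.12, adjusted p 1.18e-05). Entpd3, an ectonucleotidase, went from 0.845 ± 0.469 to 52.9 ± 11.4 CPM (log2 5.99 ± 0.31), and its shore read 2.55, 2.61 and 1.64% and then 1.26, 0 and 0.781%. Rtn4rl1, a Nogo receptor homologue, rose by log2 4.09 ± 0.25 with a shore at 33.8 and 37.5%, overlapping. Ecel1, an endopeptidase, fell by log2 -2.26 ± 0.30 (adjusted p 0.000383), and its shore read 67.8, 65.6 and 68.0% and then 64.2, 65.2 and 62.5%. The Adamts9, Entpd3 and Ecel1 shores were all lower in every Week 3 library, beside genes that rose and a gene that fell. The genes in this paragraph and Col1a2 and Pcsk6 were named after their values were seen.

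Signalling genes are taken from lists chosen with earlier results of these data known. Hedgehog signalling acts through the receptor Ptch1 and the coreceptor Boc, and a few of its 19 listed genes had a shore. Of all genes tested 19.7% rose and 17.7% fell, the background for each list here. Of the 17 hedgehog genes tested 7 rose (41.2%) and 3 fell (17.6%). The Boc shore read 4.22, 2.67 and 3.33% at Week 1 and 0, 1.00 and 0% at Week 3, and Boc RNA fell by log2 -0.24 ± 0.06 (adjusted p 0.00705). The shore of Foxf2, a forkhead target, was at 22.3 and 23.6%.

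Wnt signalling had 14 shores at 13 genes, with a median level of 5.22%, close to the 3.15% of all shores, and 4 of them at 40% or more. Of 42 listed genes tested 21 rose (50%) and 2 fell (4.76%), and of the 11 with a shore 4 rose (Rspo3, Dkk1, Dkk2 and Tcf7). With the replicate block these counts were 24 and 6, and 6 with a shore; leaving out Week 1 replicate 2 gave 4 listed genes that fell. Tcf7, which encodes a transcription factor that acts with beta-catenin, had a shore at 62.7, 60.5 and 64.1% and then 64.9, 66.7 and 66.4%, higher in every Week 3 library by a mean of 3.54 points, with 29.2 reads per site on average. Its RNA rose from 2.10 ± 0.163 to 8.38 ± 1.51 CPM (log2 2.0 ± 0.18, adjusted p 3.12e-05). The shores of the agonist Rspo3 (2.05 and 0.993%) and of the antagonists Dkk1 (5.41 and 3.42%) and Dkk2 (3.57 and 1.13%) were low in both weeks. Dkk2 RNA rose by log2 1.56 ± 0.44 (adjusted p 0.0212), but missed the threshold without replicates 1 or 3 of Week 1 (0.0795 and 0.0799) or replicate 2 of Week 3 (0.0719). Fzd6, a Wnt receptor, had one at 34.8 and 48.8%, and the ligand Wnt10a one at 63.3 and 54.0%, both overlapping between weeks.

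BMP and TGF-beta signalling had 4 shores. The shore of Gdf10, a ligand, read 27.1, 27.5 and 25.5% at Week 1 and 24.2, 23.3 and 20.9% at Week 3, lower in every Week 3 library, and its RNA rose from 29.7 ± 4.58 to 81.3 ± 18.2 CPM (log2 1.45 ± 0.19, adjusted p 0.00162). Grem1, a BMP antagonist, rose by log2 0.63 ± 0.09 with a shore at 13.3 and 8.20%, and the receptor Acvr2a and the ligand Gdf11 had shores at 0.741 and 1.56% and at 2.51 and 0.538%. Over the list, 20 of 45 genes tested rose (44.4%) and 5 fell (11.1%). Those that fell numbered 3 without replicates 1 or 3 of Week 1 or replicate 1 of Week 3.

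Cartilage matrix and hypertrophy genes seldom had a shore that met the definition: 6 of 49 did, with a median level of 7.11%. RNA of 31 of the 49 rose (63.3%) and of 2 fell (4.08%; 4 genes with the replicate block and 7 without Week 1 replicate 2), and 4 of the 6 rose. Col11a1, at 6474 ± 1538 CPM at Week 1, had a shore at 0.342, 0 and 0% and then 0.225, 0 and 0%, where 2 of 1458 and 1 of 929 reads were methylated. The shore of Phospho1, a phosphatase of matrix vesicles, read 1.08, 1.48 and 0% and then 0, 20.5 and 1.96%, so that its mean rested on Week 3 replicate 2, and its RNA rose by log2 2.39 ± 0.12. Foxa3, a forkhead factor, had one at 24.4, 35.9 and 20.8% and then 22.3, 42.7 and 34.1% with RNA up by 1.12 ± 0.15 (adjusted p 0.000406), and Foxa2 one at 28.8 and 26.4%. Mef2d and Matn4 rose (log2 0.45 ± 0.11 and 1.93 ± 0.25) beside shores at 0.271 and 0.238% and at 11.6 and 8.54%. Fgfr3, a growth factor receptor of growth plate chondrocytes, rose from 202 ± 40.4 to 471 ± 26.9 CPM with a shore at 45.1 and 44.9%.

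Homeobox and limb patterning genes, which set position along the body and limbs, had 25 shores with a median of 19.02% and a range of 1.198 to 88.7%, against a median of 3.15% for all shores. Of them 5 were at 40% or more: Hoxa2, Hoxa6, Hoxd9, Tbx18 and Alx4. That share is like the one among all 2359 shores, of which 148 were at 40 to 60%, 151 at 60 to 80% and 205 above 80%. The Hoxa6 shore read 62.1, 67.8 and 53.7% and then 66.9, 39.3 and 65.5%, and Hoxd9 44.7, 48.3 and 66.7% and then 33.3, 63.3 and 23.99%, both overlapping. At Twist1, a transcription factor known to restrain chondrocyte maturation, the upstream shore, with 26 sites, read 18.7, 17.2 and 17.04% and then 23.6, 21.0 and 22.8%, higher in every Week 3 library. Its RNA fell by log2 -0.28 ± 0.09 (adjusted p 0.0281), which did not hold by DESeq2 (0.0855), nor without replicates 1 or 2 of Week 1 (0.0775 and 0.0619) or replicates 1 or 3 of Week 3 (0.105 and 0.0578). Of 66 listed genes tested 14 rose (21.2%) and 9 fell (13.6%), against 19.7 and 17.7% of all genes tested.

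Ribosomal protein genes lay at the other end. Their 12 shores had a median of 0.149%, and 9 were under 10%. Rpl38 was at 12.2%, Rpl13a at 35.5% and Rpl35 higher still: its upstream shore read 87.2, 90.9 and 87.6% at Week 1 and 81.5, 98.1 and 84.8% at Week 3 with an island at 0.369%. Counts of ribosomal protein genes are uncertain because reads can be shared with near-identical pseudogenes. With that limit, 7 of the 12 fell and 0 rose, and 34 of the 75 listed genes tested fell (45.3%) and 1 rose (1.33%). Without Week 1 replicate 1 those that fell numbered 2 of the 12 and 17 of the list, and without Week 3 replicate 2 they numbered 3 and 20. Cell cycle genes were similar, with 8 of 9 shores under 10% and Cdc6, a replication licensing factor, at 61.0 and 62.5%. Mcm5, a helicase subunit, read 3.09, 2.49 and 1.48% and then 3.27, 4.52 and 4.52%, with RNA up by log2 1.03 ± 0.20 (adjusted p 0.00281), and Top2a, a topoisomerase, rose by 0.97 ± 0.10 beside a shore at 2.49 and 1.53%. RNA of Cdc6 differed by log2 -0.46 (adjusted p 0.0944). Of 42 listed cell cycle genes tested 15 rose (35.7%) and 6 fell (14.3%), and of the 8 with a shore 2 rose and 0 fell. With the replicate block these counts were 18 and 8, and 4 and 1 with a shore. Without Week 1 replicate 3, 2 of the listed cell cycle genes fell.

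Genes of the DNA methylation machinery had 4 shores. The panel gene Dnmt3b, a de novo methyltransferase, had one at 48.4, 52.5 and 46.1% and then 58.8, 46.3 and 53.0%, overlapping, with RNA at 6.34 ± 0.869 and 5.51 ± 0.989 CPM (log2 -0.20, adjusted p 0.39). The shore of Uhrf2, a ring finger protein that binds modified cytosine, read 22.3, 18.9 and 19.003% and then 22.7, 29.6 and 21.8%, and its RNA fell by log2 -0.31 ± 0.05 (adjusted p 0.00131). Mbd2, a reader of methylated CpG, had a shore at 0% in all 6 libraries and rose by log2 0.25 ± 0.06 (adjusted p 0.00969), and Mbd4, a glycosylase, had one at 0.712 and 1.35%. Of the 25 listed genes 7 rose and 3 fell, with 1 falling without Week 3 replicate 1. Of the 21 panel genes, Ptch1 and Dnmt3b were those with a shore.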

How the data were processed

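Methylation and expression were measured in separate libraries, 3 ERRBS and 3 RNA-seq libraries per week. For ERRBS the authors deposited, per the file headers, the coverage of each CpG cytosine (a count of reads) and the percent of reads showing C or T, listed from 10 reads upward with strands separate. RNA-seq tables held, as deposited, raw read counts of RefSeq transcripts. The submitters' processing notes name CASAVA 2.17, STAR, featureCounts, Bismark and build mm10. The series description adds FLEXBAR, methylKit, eDMR and DESeq2. How strand was set in counting, whether duplicates were removed and other versions are not given in the sources used, so reads of overlapping genes on opposite strands cannot be told apart.

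On chromosomes 1 to 19, 720674 sites were shared by the 6 ERRBS libraries, and each lies on a CpG of mm10. CpG counts, 5' ends, annotation and sequences come from RefSeq on GRCm38.p6, which is mm10. Before the coverage rule there were 12776 islands and 12212 shores. The level of a tile is the mean percent of its sites. The shore definition and all gene lists were chosen with earlier results of these data known. For the tile test, edgeR 4.0.16 in R 4.3.3 was used (glmQLFit and glmQLFTest on methylated and unmethylated reads, 1 effect per library), over all tiles but within 11 classes of pooled level, with Benjamini-Hochberg adjustment over 70582 tiles. The classes replaced a single spread for all levels after a test on simulated data in which the single fit recovered no changes. The 109 shores with reads of 1 kind only were left out of the fit.

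The value of a gene was its transcript with the highest total, 23622 genes in all. That transcript need not start at the 5' end that linked the gene to its shore. Of 30048 transcripts, 394 matched no symbol (1.53% of counts) and were kept under their own IDs. Genes were tested with edgeR (TMM, filterByExpr, robust quasi-likelihood test), 14356 in all. CPM uses TMM library sizes, and CPM per kb the exon length of the transcript. Class means were compared over libraries by exact permutation (3 against 3) and exact sign flips (6 libraries). Alternatives used limma 3.58.1, DESeq2 1.42.0 and the settings named in the closing section. Python 3.11.15 did the rest.

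Replicate numbers were checked for pairing. Deviations of same-numbered RNA libraries from the week means correlated at 0.280, 0.387 and 0.199, each above 0.1. Week 1 replicate 1 and Week 3 replicate 3 also passed 0.1, at 0.104, and the other unlike numbers lay between -0.306 and 0.0598. Any pairing by number in RNA is thus read from the data and not the labels. The adjusted p-values of genes above are from the fit without pairs, and the replicate block is an alternative. For shore levels the same-numbered libraries gave -0.0191, -0.00144 and 0.0296, and the numbers did not pair the samples. Tiles named were the 8 with the smallest p, the 5 largest differences each way among shores whose weeks did not overlap, shores of 21 panel genes, and the 5 largest steps above the island. Up to 10 called shores at called genes were also to be named, and there were none. Some results are not reported here.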

Additional observations from a re-analysis of the deposited data

How the results depend on the processing

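The level difference of shores between weeks kept its sign under 14 alternatives (-0.456 to -0.115 points), the step from island to shore under 11 (-0.510 to -0.344), and the number of shores called was 0 under 14. The difference between shores of genes that rose and of genes that fell was 0.178 to 0.974 points under 11 alternatives and -0.000634 without Week 3 replicate 2. Leaving out 1 library at a time gave it a range of -0.000634 to 0.569. Without Week 3 replicate 2, 1 tile of all those tested was called (adjusted p 0.0345, edgeR), and it was not a shore. Shores at an unadjusted p under 0.05 numbered 58, but 105 with a single fit over all levels, 95 with limma, 39 with a replicate block, and 21 to 82 with 1 library left out. The single fit, a limit on very high coverage and 5' ends of predicted transcripts were chosen after seeing the data.

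Shore genes called numbered 759, with 615 by DESeq2, 745 with no filter on low counts, 736 with transcripts summed and 544 to 812 with 1 library left out. With the replicate block they numbered 896, and of the genes checked singly Hoxa10 (adjusted p 0.036), Rpl35 (0.0291) and Zbtb24 (0.0471) gained a call. The block changed no other call of those genes and left the other results on the same side of the threshold: the level difference stayed at -0.298 points (p = 0.25, exact sign flips over 3 pairs). Single genes and tiles stayed on the same side of the threshold in 749 checks, lost a call in 53 and gained one in 9; the causes were not tested. Week 1 replicate 3 had the fewest reads per site (18.9), and shores had a median of 5 sites. Differences as large as -23.2 points, at Maf1, passed no threshold, and the smallest difference that could have passed was not tested.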
